A study of Mus musculus with 24 samples.

Results

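The replication-dependent histone genes of the mouse encode the bulk of the core histones H2A, H2B, H3 and H4 and of the linker histone H1. They were followed here in 32D cells, a mouse bone marrow line that needs interleukin-3 (IL-3) to grow. Members were the genes whose symbol starts with Hist1h, Hist2h, Hist3h or Hist4h, or that carry the newer symbols of the H1, H2A, H2B, H3 and H4 clusters. That gave 67 of the 55414 genes in the count tables, after 3 pseudogenes were left out. The groups were KO1, KO2 and WT. KO1 and KO2 are 2 clones labelled Nat10+/-, and WT is the wild-type line. NAT10 is the enzyme that acetylates cytidine in RNA, and the series asks about its effect on RNA lifetime. All cultures grew in 10% serum with 10 ng/ml IL-3. Actinomycin D was given to all 3 genotypes at 0.05 µg/ml, and RNA was taken before it (0 h) and after 3, 6 and 9 h. Each genotype and time had 2 libraries of polyadenylated RNA, so that 24 libraries fell into 12 groups. Each mutant genotype is a single clone, so that the effect of the allele and that of the clone cannot be told apart. The labels do not say whether the 2 libraries of a group came from separate cultures, and the p-values cover no more than the spread between libraries.

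Replication-dependent histone mRNAs are made in S phase, when newly copied DNA has to be packed, and their mature form ends in a short stem-loop in place of a poly(A) tail. The stem-loop binding protein SLBP and the U7 small nuclear RNP direct the cut behind the stem-loop, and SLBP, the exonuclease ERI1 and UPF1 take part in the fast decay of these mRNAs when DNA synthesis stops. A library made from polyadenylated RNA therefore holds only the part of each histone message that carries a tail, and the values below describe that part and not the total histone mRNA of the cell. Actinomycin D blocks transcription by intercalating into DNA, with RNA polymerase I the most sensitive to low doses.

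The members differed in the sequence of the stem-loop and in how far their annotated transcripts run past it, which bears on how a tail could be present. The 3 forms found in most members are given here from the annotated transcripts, 5′ to 3′, in capitals throughout because the whole stem-loop matters. Each has 2 arms of 6 bases that pair with each other around a loop of 4 bases.
Hist1h1c form: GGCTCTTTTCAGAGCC
Hist1h4n form: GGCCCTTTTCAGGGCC
Hist1h3e form: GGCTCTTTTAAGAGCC
The Hist1h1c form stood in 26 members, of which 3 encode H1, 10 H2A, 8 H2B, 5 H3 and 0 H4. The Hist1h4n form stood in 7 members and all 7 encode H4. The Hist1h3e form stood in 6 members, and 2 further forms stood in 1 member each. Over the 55450 genes of the transcript set, 28 held the Hist1h1c form exactly in the longest transcript, and 25 of them were members. That form was picked as the perfect hairpin of this size found in the largest number of members. Its frequency in members is therefore partly built in. With up to 2 mismatches allowed, 41 of the 67 members held a stem-loop. In the other 26 the annotated transcript held none, which says only that these letters are not in the annotated sequence. Of the 41, 19 had more than 100 annotated bases behind the stem-loop and 22 had at most 100. The 19 long ones held 52.1% of all counts of the family, the 22 short ones 10.7% and the 26 without an annotated stem-loop 37.2%. Hist1h1c had 840 bases behind its stem-loop, with an AATAAA, the usual poly(A) signal, 815 bases behind it. Hist1h2bp had 38 such bases in 1 of its 2 annotated transcripts, while the other held no stem-loop. Hist1h4n had 31.

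Counts of the family were low. Over all 24 libraries the 67 members summed to 71019 counts, and the summed share of all gene counts lay between 0.00620% and 0.0375% per library. The libraries held between 15361601 and 17338939 gene counts each. Of the 67 members, 60 had counts and 7 had 0 in every library. The filter on low counts kept 40 members of 16167 genes, and 27 members were not tested, of which 20 had counts, at most 107 over the 24 libraries. Over all libraries Hist1h1c gave 25.6% of the family's counts and the 12 members with the highest level gave 78.2%. The share of Hist1h1c was 50.7%, 35.0% and 57.3% at 0 h in KO1, KO2 and WT, 54.5%, 57.0% and 63.0% at 3 h, 14.3%, 14.0% and 18.1% at 6 h, and 11.7%, 10.5% and 10.0% at 9 h. By class and over all libraries, H1 had 6 members (5 tested, 30.8% of counts), H2A 18 (6 tested, 5.19%), H2B 18 (9 tested, 30.3%), H3 12 (8 tested, 8.83%) and H4 13 (12 tested, 24.9%). Most of the family sits in 1 cluster on chromosome 13, where 54 members between bases 21899933 and 24118834 (GRCm39) gave 83.0% of the counts. The cluster on chromosome 3 has 10 members between bases 96127181 and 96177448, of which 5 had 0 counts in every library. The remaining members are 2 on chromosome 11 and Hist4h4 on chromosome 6.

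Several features of the counting bear on these genes. All 18 H2A genes share exonic bases with another annotated gene, and 24 members in all do so. Read pairs on such bases are left out by the default of the counting program, and strand was not used. In 16 members under 20% of the 50-base windows occur in that gene alone, and these held 6.82% of the counts. Hist1h4m (10.2% of windows) and Hist1h4n (14.4%) are among the named members, and their counts are uncertain because near-identical copies exist.

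The targeted gene, Nat10, was measured at 103 ± 7.62 CPM in KO1, 97.2 ± 2.87 in KO2 and 112 ± 1.52 in WT at 0 h (CPM, counts scaled to the library's total; SD, n = 2 each). Nat10 was lower in both clones at 0 h by edgeR's quasi-likelihood test. The log2 difference was -0.12 (SE 0.05, adjusted p = 0.0486) in KO1 and -0.21 (SE 0.05, adjusted p = 0.000291) in KO2. SE here and below, also in the figure of log2 fold changes, is the absolute log2 value divided by the square root of the test's F statistic. It can be too small where a group had few counts. Spike-in counts were 3742 to 13774 in the clones and 120 to 257 in WT, so that spike-ins were not used to compare genotypes. The labels call the cells lymphoblastocytes. Among lymphoid markers, Cd2 had 0 counts in every library and Cd3e, Cd3g and Ebf1 had 1 to 15 counts in all. Cd79a, Cd79b and Pax5 passed the filter on low counts and rose by 9 h in all 3 genotypes, as most tested histone genes did. Cd79a, a B cell receptor component, stood at 12.7, 14.0 and 21.1 CPM at 9 h in KO1, KO2 and WT, against at most 0.237 CPM at 0 h in any genotype, and the part of such cells or RNA in the results was not tested. By comparison, the 9 myeloid markers summed to 597 to 1474 CPM per group. Summed macrophage markers were lower in the clones, at 25.4 to 49.8 CPM in KO1 and 11.4 to 33.3 in KO2, against 60.4 to 127 in WT. Of the 4 markers 3 were tested, and they did not move alike. Lyz2 and Adgre1 were lower than in WT in both clones at every time, while Csf1r was higher in both at 6 and 9 h. Summed stromal markers stood at 5.09 CPM in WT at 0 h, with 6.22 and 3.96 CPM in the 2 libraries. No other group was above 0.960 CPM. All 3 tested stromal genes were called lower in both clones than in WT at 0 h. In WT all 3 were also called lower at 3 h than at 0 h. The WT libraries of 0 h are the reference for the clones at 0 h and for the changes with time in WT. The part of the macrophage and stromal markers in the results below was not tested.

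As a share of the library (CPM), the summed level of the family was higher at each later time in every genotype. In KO1 it stood at 70.3 ± 3.03 CPM at 0 h, 133 ± 0.796 at 3 h, 159 ± 2.31 at 6 h and 298 ± 3.17 at 9 h (SD, n = 2 here and below). In KO2 the sums were 66.1 ± 3.40, 100.5 ± 0.153, 138 ± 3.19 and 248 ± 8.20 CPM at the same times. In WT they were 111 ± 1.83, 205 ± 8.48, 245 ± 9.60 and 349 ± 7.32 CPM. No library of 9 h overlapped with those of 0 h in any genotype, and at each of the 4 times both libraries of each clone lay below both WT libraries. In counts, the 2 libraries of 9 h held 5072 and 5301 in KO1, 4630 and 4428 in KO2, and 6080 and 5924 in WT, while those of 0 h held 1092 and 1086, 1095 and 1022, and 1894 and 1853.

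**Figure D1:**
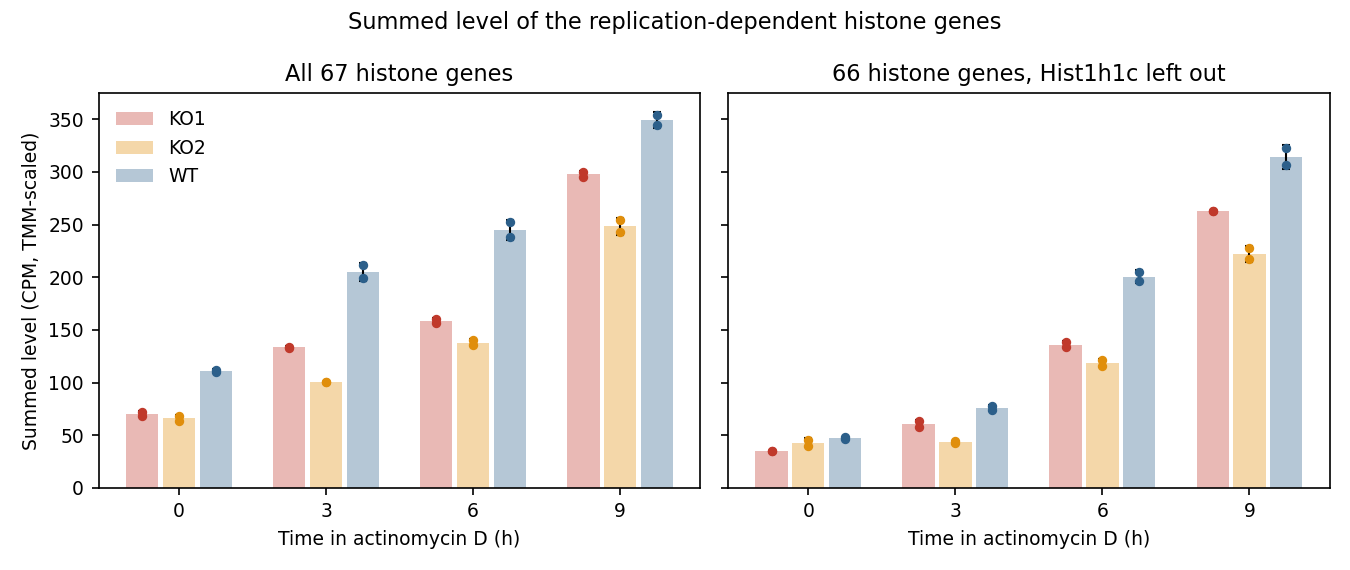
Summed level of the 67 histone genes in CPM (vertical axis) against hours of actinomycin D (horizontal axis) in KO1, KO2 and WT. The left panel holds all 67 members and the right panel leaves out Hist1h1c; bars are means, error bars SDs and points the 2 libraries. Every genotype is highest at 9 h, and the clones lie below WT at each time in the left panel.

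The sum at 9 h was 4.24-fold that at 0 h in KO1, 3.76-fold in KO2 and 3.15-fold in WT. These folds are relative to the other RNAs of the library. Counted per spike-in count instead, the sum at 9 h was 4.47-fold, 1.72-fold and 1.78-fold that at 0 h in KO1, KO2 and WT. Between those times the steps differed on this scale. In KO1 the 2 libraries stood at 0.452 and 0.476 histone counts per spike-in count at 6 h, against 0.485 and 0.475 at 3 h, which overlap. In KO2 they stood at 0.195 and 0.191 at 0 h, 0.179 and 0.189 at 3 h, and 0.188 and 0.178 at 6 h, so that neither 3 h nor 6 h lay above 0 h. In WT both libraries of 6 h lay between those of 3 h, which stood at 17.8 and 21.4. On that scale the median of all tested genes at 9 h moved by 0.08 log2 units in KO1, -1.12 in KO2 and -0.82 in WT against the TMM scale. In bulk RNA, a change in the share of cells in S phase and a change of RNA per cell cannot be told apart. Against WT, the sum was 1.58-fold lower in KO1 and 1.68-fold lower in KO2 at 0 h, 1.54-fold and 2.04-fold lower at 3 h, 1.55-fold and 1.78-fold lower at 6 h, and 1.17-fold and 1.41-fold lower at 9 h. Both clones are set against the same WT libraries, so that their differences are not independent of each other. Much of the difference at 0 h came from Hist1h1c. Without it, the sum at 0 h was 34.6 CPM in KO1, 42.9 in KO2 and 47.3 in WT, which is 1.37-fold and 1.10-fold lower than WT. The sum without Hist1h1c at 9 h was 7.59-fold that at 0 h in KO1, 5.18-fold in KO2 and 6.64-fold in WT. At 3 h it had not moved beyond the spread in KO2, at 43.2 CPM against 42.9 at 0 h, with overlapping libraries.

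The classes had different time courses. Summed H4 messages stood at 5.52, 17.3, 48.7 and 101 CPM at 0, 3, 6 and 9 h in KO1, at 11.5, 11.0, 43.0 and 80.8 CPM in KO2, and at 6.95, 17.3, 65.5 and 110.0 CPM in WT. Their level at 9 h was 18.3-fold that at 0 h in KO1, 7.01-fold in KO2 and 15.8-fold in WT. H3 followed with 9.40-fold, 4.01-fold and 7.98-fold in KO1, KO2 and WT, H2B with 6.15-fold, 6.54-fold and 5.38-fold, and H2A with 3.37-fold, 2.50-fold and 4.37-fold. Summed H1 messages stood apart, at 40.3, 75.3, 31.7 and 49.5 CPM in KO1, 28.7, 59.7, 26.4 and 39.8 CPM in KO2, and 71.4, 134, 60.5 and 55.5 CPM in WT. Their highest level was at 3 h in all 3 genotypes, and at 9 h they were 1.23-fold, 1.39-fold and 0.776-fold their 0 h level in KO1, KO2 and WT. Per spike-in count the H1 ratio in KO2 turned to 0.633, while the H2A, H2B, H3 and H4 sums stayed higher at 9 h than at 0 h in every genotype on either scale. The H1 peak at 3 h was that of Hist1h1c. Without it the H1 sum was 4.62, 2.58, 9.13 and 14.6 CPM in KO1, 5.59, 2.45, 7.11 and 13.8 CPM in KO2, and 7.93, 5.08, 16.0 and 20.5 CPM in WT.

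**Figure D2:**
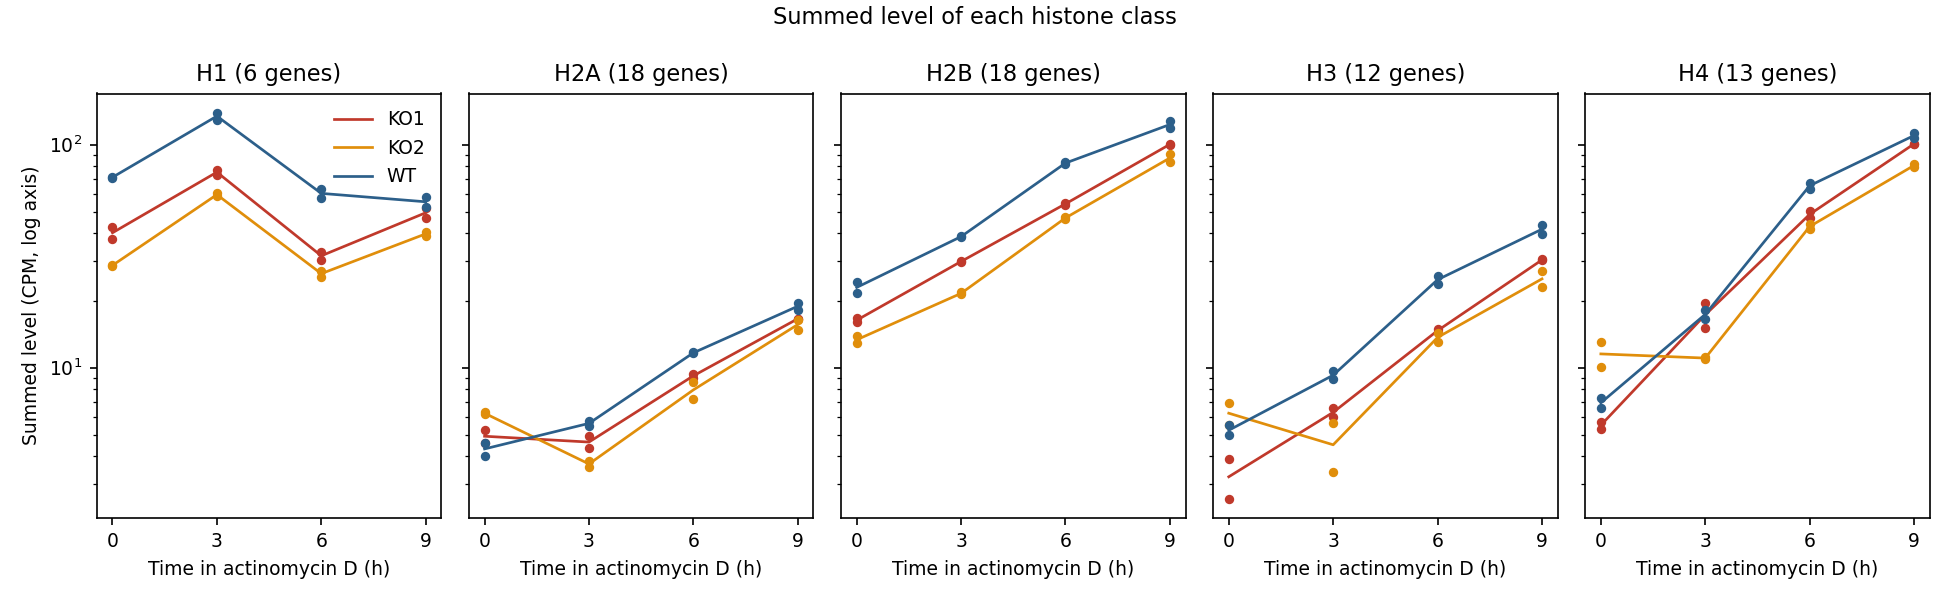
Summed CPM (vertical log axis) of the H1, H2A, H2B, H3 and H4 members against hours of actinomycin D (horizontal axis) in KO1, KO2 and WT. Points are libraries and lines join means of 2; H1 is highest at 3 h, and the H4 sum at 9 h is 18.3-fold its 0 h level in KO1.

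Across the 40 tested members, most were higher at 9 h than at 0 h. In KO1 32 of 40 rose and 0 fell, where 42.2% of all tested genes rose and 38.3% fell (edgeR's quasi-likelihood test, Benjamini-Hochberg adjusted p under 0.05). In KO2 27 rose and 1 fell, where 42.0% of all tested genes rose and 38.8% fell. In WT 37 rose and 2 fell, where 43.2% rose and 38.5% fell. The median log2 change of the members was 3.27 in KO1, 1.96 in KO2 and 3.14 in WT, beside 0.12, 0.09 and 0.13 for all tested genes. On the spike-in scale 32 rose and 0 fell in KO1 (41.3% and 33.6% of all tested genes), 19 and 6 in KO2 (16.6% and 63.0%), and 32 and 2 in WT (21.1% and 55.8%), with median changes of 3.35, 0.84 and 2.35. On the TMM scale the same 26 members rose in all 3 genotypes. The share of all tested genes that did so was not counted, and it cannot exceed the 42.0% that rose in KO2. These tests compare separate libraries but come from 1 fit with a shared estimate of the spread, so that they are not fully independent. All 12 tested H4 genes rose in KO1 and in WT, and 8 in KO2. The highest mean level fell at 9 h for 35 of 40 members in KO1, 31 in KO2 and 35 in WT, beside 31.7%, 30.6% and 31.4% of all tested genes.

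At 3 h the members were split. In KO1 17 of 40 rose and 2 fell against 0 h, where 37.9% of all tested genes rose and 33.4% fell. In KO2 10 rose and 11 fell, where 37.6% rose and 33.3% fell, and in WT 19 rose and 4 fell, where 38.6% rose and 33.5% fell. Their median log2 change was 0.99 in KO1, -0.41 in KO2 and 1.06 in WT. With Hist1h4m, which had 0 counts at 0 h, set to its bound, the KO1 median was 0.96. Hist1h1c, Hist1h2bc, Hist1h2bh, Hist1h2bp, Hist1h3d, Hist1h4i, Hist1h4k, Hist2h2be and Hist2h4 rose in all 3 genotypes, and Hist1h1e fell in all 3. On the spike-in scale 15 rose and 2 fell in KO1 (27.1% and 34.5% of all tested genes), 3 and 21 in KO2 (13.1% and 52.7%), and 12 and 6 in WT (17.4% and 46.2%). The share of members that fell in KO2 was thus near that of all genes.

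**Figure D3:**
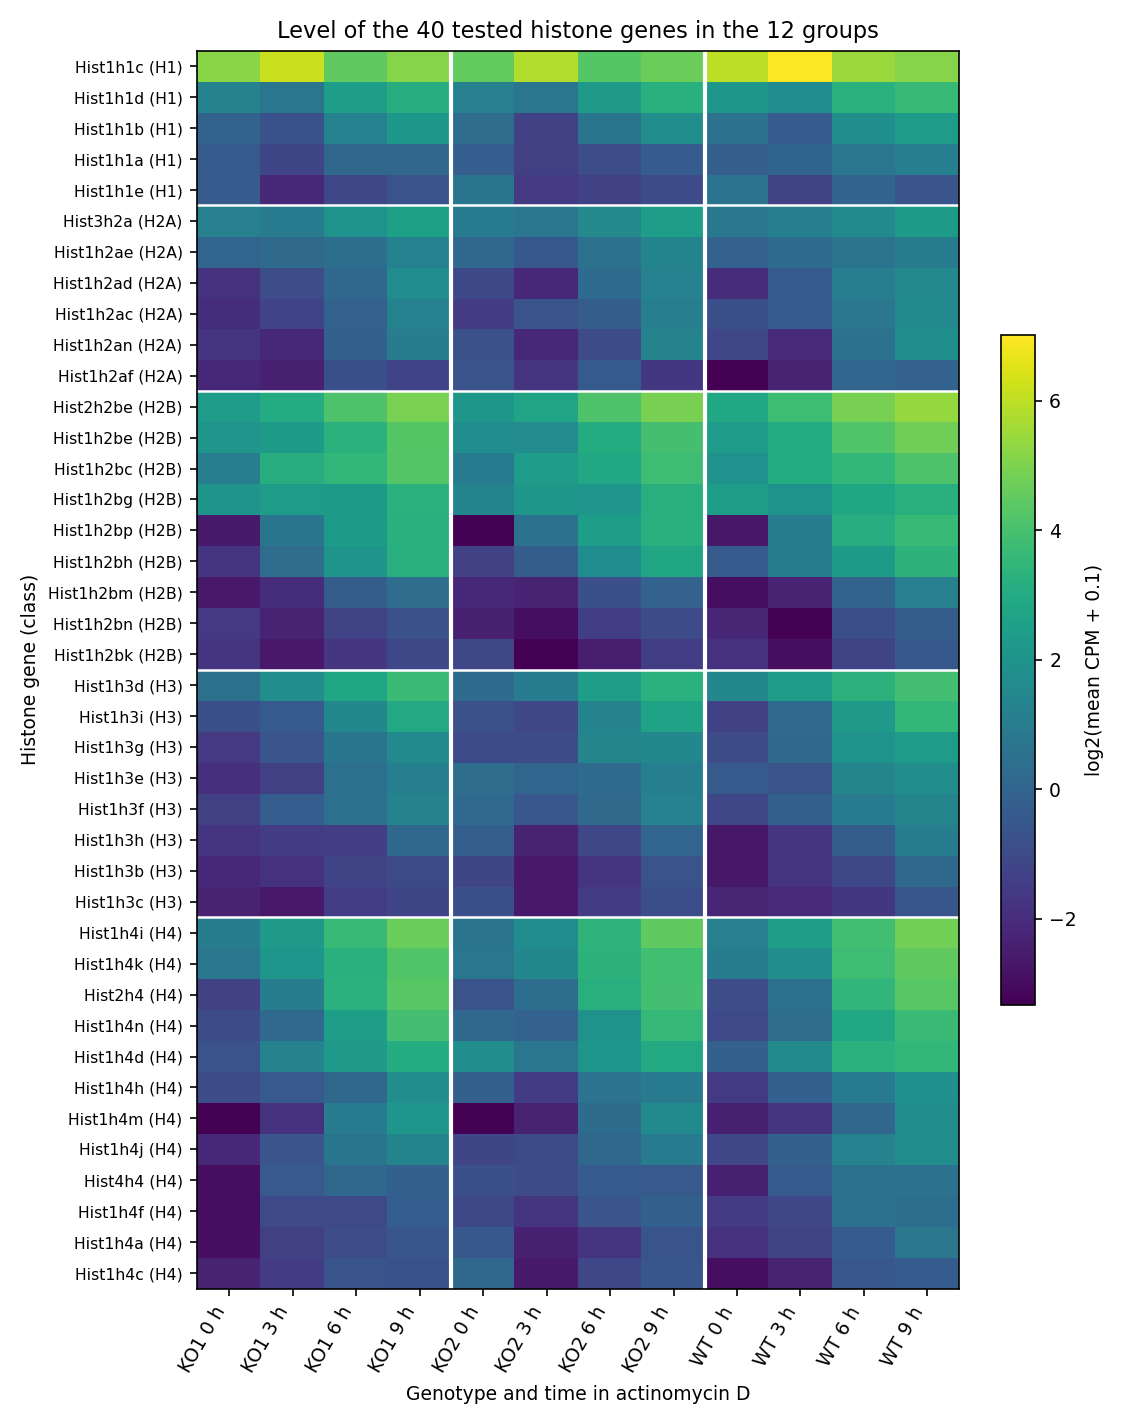
Mean level of the 40 tested members as log2(mean CPM + 0.1), by colour, with members down the page in order of class and the 12 groups (KO1, KO2 and WT, each at 0, 3, 6 and 9 h) across it. Hist2h4 and Hist1h4i reach their highest values at 9 h, while Hist1h1c is highest at 3 h.

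Hist1h1c (H1f2; chromosome 13, 23922791 to 23924350, plus strand, GRCm39), which encodes the linker histone H1.2, had the highest mean level per length of the family over all libraries, 30.1 CPM per kb. Per length it led at 0 and 3 h in every genotype, while at 6 and 9 h Hist1h4k did. At 9 h Hist1h4k had 59.3, 47.3 and 71.4 CPM per kb in KO1, KO2 and WT, beside 22.4, 16.7 and 22.4 for Hist1h1c. That lead depends on the annotated length, 312 bases for Hist1h4k and 1560 for Hist1h1c. By mean CPM over all libraries Hist1h4k ranked 6 in the family. For Hist1h1c, KO1 gave 569 and 535 counts at 0 h, 1087 and 1209 at 3 h, 385 and 368 at 6 h, and 561 and 657 at 9 h. KO2 had 362 and 380 at 0 h, 822 and 927 at 3 h, 333 and 359 at 6 h, and 482 and 466 at 9 h. WT had 1079 and 1068 at 0 h, 1950 and 1951 at 3 h, 734 and 689 at 6 h, and 549 and 652 at 9 h. Every genotype was highest at 3 h, both clones lay below WT without overlap at 0, 3 and 6 h, and KO1 and WT overlapped at 9 h. At 3 h it had risen by a log2 of 1.03 (SE 0.07, adjusted p = 1.87e-26) in KO1, 1.31 (SE 0.08, adjusted p = 2.47e-30) in KO2 and 1.02 (SE 0.06, adjusted p = 2.39e-31) in WT. At 9 h against 0 h it did not pass the test in KO1 (-0.03) or KO2 (0.17), and it fell in WT (log2 -0.86, SE 0.07, adjusted p = 8.08e-22). Against WT at 0 h it was lower by -0.83 (SE 0.07, adjusted p = 4.44e-19) in KO1 and by -1.45 (SE 0.07, adjusted p = 1.4e-33) in KO2. Against WT at 9 h it was lower in KO2 (-0.43, SE 0.08, adjusted p = 3.04e-06), and in KO1 the difference was 0.00 (SE 0.07, adjusted p = 0.996).

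Among the other H1 genes, Hist1h1d (H1f3), encoding H1.3, had 132 and 166 counts at 9 h and 35 and 39 at 0 h in KO1. In KO2 it had 181 and 158 at 9 h and 38 and 31 at 0 h, and in WT 214 and 211 at 9 h and 67 and 79 at 0 h. Its libraries of 9 h lay above those of 0 h in each genotype, and the clones lay below WT without overlap at both times. It rose by 9 h by a log2 of 1.84 (SE 0.20, adjusted p = 1.82e-14) in KO1, 2.11 (SE 0.20, adjusted p = 1.94e-17) in KO2 and 1.52 (SE 0.17, adjusted p = 2.64e-14) in WT. Hist1h1d was lower than in WT at every time in both clones, by -0.88 (SE 0.17) in KO1 and -1.06 (SE 0.17) in KO2 at 6 h, and by -0.53 (SE 0.15) in KO1 and -0.41 (SE 0.15) in KO2 at 9 h. Hist1h1e (H1f4), encoding H1.4, went the other way at 3 h. It had 2 and 2 counts in KO1, 4 and 3 in KO2 and 4 and 6 in WT at 3 h, against 11 and 11, 23 and 25, and 18 and 31 at 0 h. The fall was -2.42 (SE 0.79, adjusted p = 0.00491) in KO1, -2.67 (SE 0.63, adjusted p = 9.48e-05) in KO2 and -2.11 (SE 0.59, adjusted p = 0.000871) in WT. Hist1h1e and Hist1h2be share 496 exonic bases on the same strand in the annotation, and pairs on those bases are counted for neither by default.

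H2A genes gave few counts. The most that could be read for a named member was in Hist1h2ad (H2ac7), with 51 and 58 counts at 9 h in KO1, 46 and 38 in KO2 and 42 and 54 in WT, against 0 and 6, 7 and 5, and 3 and 2 at 0 h. The groups of 9 h and 0 h did not overlap in any genotype. It rose by a log2 of 3.97 (SE 0.51, adjusted p = 1.34e-11) in KO1, 2.60 (SE 0.46, adjusted p = 2.79e-07) in KO2 and 4.17 (SE 0.53, adjusted p = 1.13e-11) in WT. Hist1h2af (H2ac10) had 8 and 9 counts in KO2 and 0 and 0 in WT at 0 h. That is at least 5.98-fold higher in KO2 against a floor of 3 counts over the group (adjusted p = 0.000683). At 9 h it had 6 and 2 counts in KO2, against 13 and 16 in WT, where that is at least 9.51-fold above 0 h.

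H2B was led by Hist2h2be (H2bc21; chromosome 3, 96128435 to 96131054, plus strand). KO1 gave 86 and 72 counts at 0 h, 117 and 138 at 3 h, 309 and 278 at 6 h, and 503 and 571 at 9 h. In KO2 it had 75 and 64, 101 and 96, 317 and 311, and 551 and 527 counts, and in WT 123 and 114, 203 and 216, 461 and 499, and 736 and 690. Each later time lay above the one before in every genotype, and both clones lay below WT at all 4 times without overlap. Its change by 9 h was 2.60 (SE 0.12, adjusted p = 1.67e-37) in KO1, 2.77 (SE 0.13, adjusted p = 7.91e-39) in KO2 and 2.56 (SE 0.11, adjusted p = 3.03e-41) in WT. The difference from WT was -0.46 (SE 0.16, adjusted p = 0.0215) in KO1 and -0.69 (SE 0.16, adjusted p = 0.000406) in KO2 at 0 h, and -0.43 (SE 0.09, adjusted p = 2.26e-05) and -0.49 (SE 0.09, adjusted p = 1.38e-06) at 9 h. At 3 h in KO2 its rise of 0.57 turned to -0.10 on the spike-in scale.

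Hist1h2bp (H2bc22), close to absent at 0 h, had a steep course. KO1 gave 2 and 0 counts at 0 h, 28 and 20 at 3 h, 83 and 80 at 6 h, and 164 and 166 at 9 h. In KO2 it had 0 and 0, 19 and 22, 99 and 94, and 163 and 179, and in WT 1 and 1, 22 and 37, 139 and 132, and 224 and 218. At 9 h it stood 7.04 log2 units above 0 h in KO1 (SE 0.40, adjusted p = 4.25e-31) and 7.59 in WT (SE 0.37, adjusted p = 4.04e-36). With 2 and 0 counts in KO1 and 1 and 1 in WT at 0 h, these SEs are too small and the sizes uncertain. In KO2 it stood at least 100.1-fold above 0 h (342 against 0 counts over the group). Hist1h2bc (H2bc4) had 147 and 125 counts at 3 h and 39 and 23 at 0 h in KO1. In KO2 it had 69 and 90 at 3 h and 35 and 22 at 0 h, and in WT 138 and 112 at 3 h and 55 and 67 at 0 h. It was lower than in WT at 0 h in KO1 (-0.85, SE 0.26, adjusted p = 0.00681) and KO2 (-1.02, SE 0.26, adjusted p = 0.00111). Hist1h2be (H2bc6) was lower in both clones at 3, 6 and 9 h, with -0.76, -0.92 and -0.52 in KO1 and -1.42, -1.13 and -0.83 in KO2. Hist1h2bg (H2bc8) behaved differently at 3 h, when it did not pass in KO1 (0.32, SE 0.20, adjusted p = 0.153), rose in KO2 (0.82, SE 0.23, adjusted p = 0.000905) and fell in WT (-0.49, SE 0.20, adjusted p = 0.0214). By 9 h it had risen in all 3 genotypes, by 1.26 in KO1, 1.87 in KO2 and 0.69 in WT, of which the change in WT turned to -0.14 on the spike-in scale. Hist1h2bk (H2bc12) had 0 counts in KO2 at 3 h against 12 over the group at 0 h, at least 3.81-fold lower.

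Of the H3 genes, Hist1h3d (H3c4) had the most counts, with 242 and 219 at 9 h in KO1, 200 and 146 in KO2 and 264 and 250 in WT, against 11 and 30, 18 and 18, and 55 and 35 at 0 h. Levels at 9 h lay above those at 0 h in each genotype, and at 0 h both clones lay below WT. Its change by 9 h was 3.32 (SE 0.22, adjusted p = 2.55e-26) in KO1, 3.07 (SE 0.24, adjusted p = 4.2e-22) in KO2 and 2.49 (SE 0.19, adjusted p = 3.45e-23) in WT. At 0 h it was lower than in WT by -1.01 (SE 0.30, adjusted p = 0.00623) in KO1 and -1.24 (SE 0.31, adjusted p = 0.000803) in KO2. Hist1h3e (H3c6) was lower in KO1 at 0 h (-1.96, SE 0.75, adjusted p = 0.0383), with 2 and 3 counts against 7 and 15 in WT, while KO2 had 21 and 17 counts and did not pass the test against WT.

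H4 was the class with the largest relative change of its sum between 9 h and 0 h in all 3 genotypes. Hist2h4 (H4c14) had 1 and 9 counts at 0 h, 33 and 29 at 3 h, 147 and 174 at 6 h, and 350 and 352 at 9 h in KO1. In KO2 it had 6 and 11, 19 and 18, 144 and 172, and 273 and 273, and in WT 4 and 11, 24 and 15, 173 and 181, and 346 and 342. All 3 genotypes overlapped at 0 h, and at 9 h KO2 lay below the others. By 9 h it had risen by a log2 of 5.93 (SE 0.26, adjusted p = 2.33e-40) in KO1, 4.80 (SE 0.25, adjusted p = 5.79e-35) in KO2 and 5.47 (SE 0.24, adjusted p = 1.96e-40) in WT. Hist1h4i (H4c9) gave 460 and 441 counts at 9 h in KO1, 387 and 426 in KO2 and 502 and 467 in WT, against 28 and 31, 30 and 17, and 44 and 30 at 0 h. Its change was 3.76 (SE 0.17) in KO1, 3.92 (SE 0.18) in KO2 and 3.68 (SE 0.16) in WT. Hist1h4k (H4c12) had the highest mean H4 level per length over all libraries, 27.9 CPM per kb, on an annotated length of 312 bases. Only 28.5% of its 50-base windows occur in that gene alone. It rose by 3.51 (SE 0.18) in KO1, 3.23 (SE 0.19) in KO2 and 3.53 (SE 0.17) in WT. Hist1h4m (H4c17) had 64 and 85 counts at 9 h and 0 and 0 at 0 h in KO1, at least 44.2-fold higher. In KO2 it had 49 and 59 against 0 and 0, at least 31.6-fold higher, and in WT 57 and 55 against 3 and 0 (log2 5.08, SE 0.58, adjusted p = 1.36e-13).

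**Figure D4:**
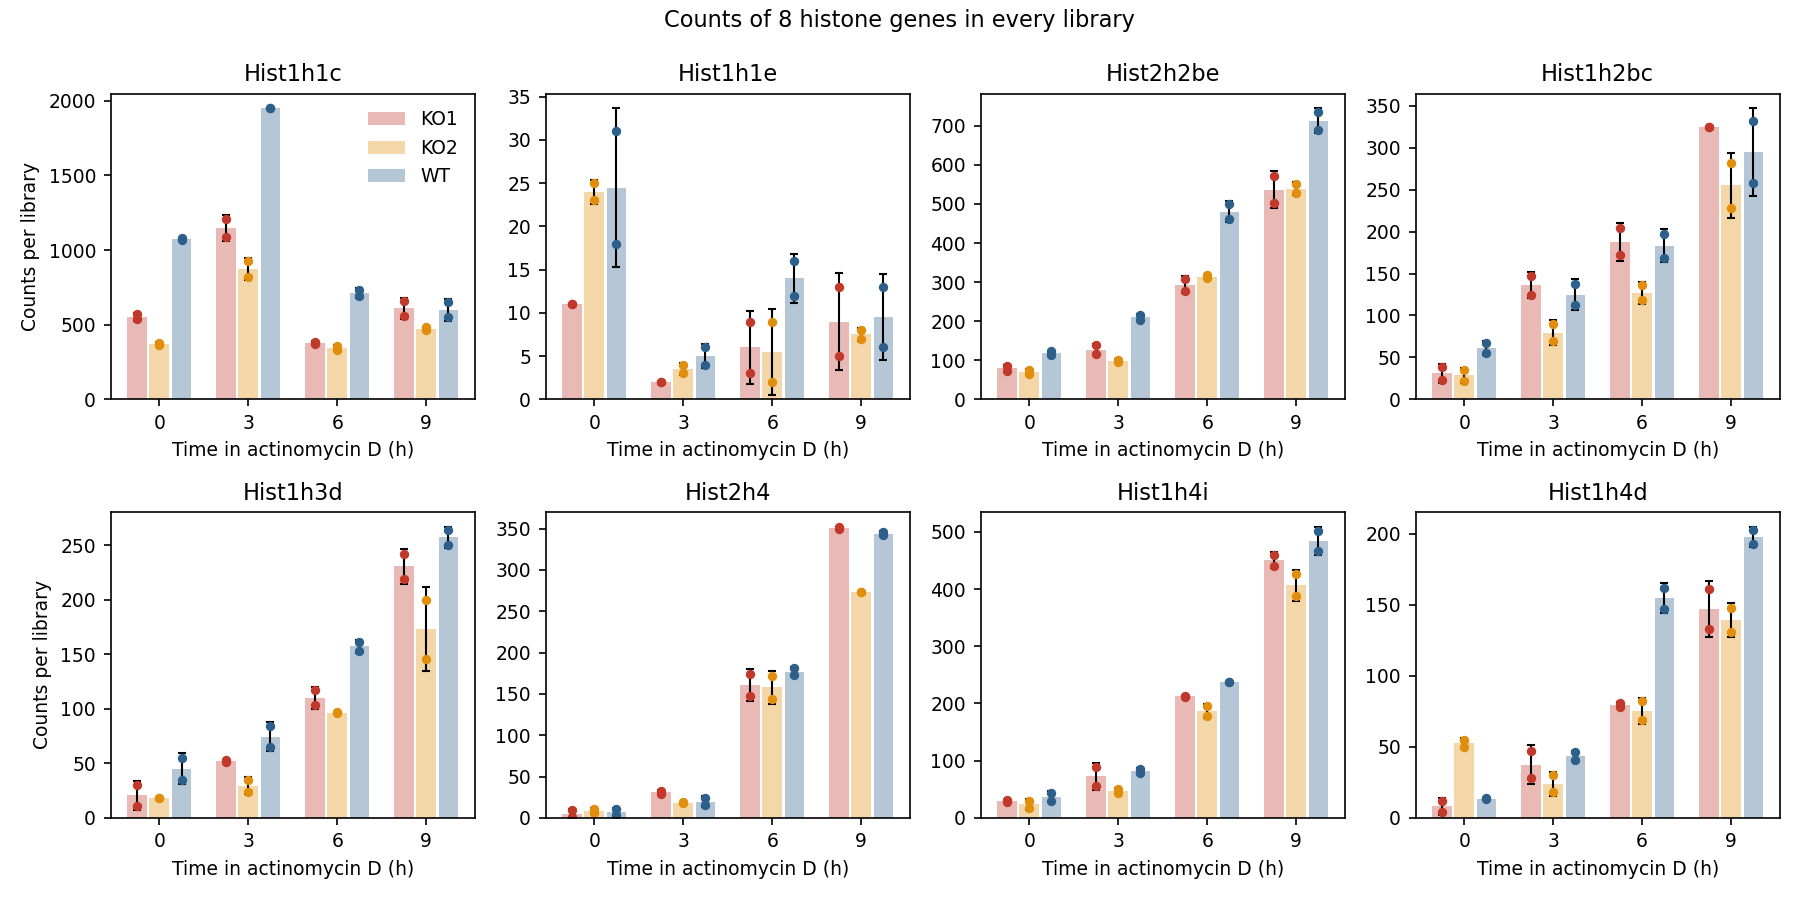
Counts per library (vertical axis) of 8 named members against hours of actinomycin D (horizontal axis) in KO1, KO2 and WT; bars are means, error bars SDs, points libraries, and each panel has its own scale. Hist1h1c is highest at 3 h, Hist2h2be and Hist2h4 at 9 h, and Hist1h4d at 0 h is higher in KO2 than in KO1 and WT.

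Hist1h4d (H4c4) set KO2 apart at 0 h. KO1 had 12 and 4 counts at 0 h, 47 and 28 at 3 h, 78 and 81 at 6 h, and 133 and 161 at 9 h. In KO2 they were 55 and 50, 18 and 30, 82 and 69, and 131 and 148, and in WT 13 and 14, 46 and 41, 162 and 147, and 203 and 193. KO2 was above the other genotypes at 0 h and below WT at 3, 6 and 9 h, without overlap. It was higher in KO2 than in WT at 0 h by 2.03 (SE 0.31, adjusted p = 4.75e-08) and higher than in KO1 by 2.65 (SE 0.35, adjusted p = 9.51e-10), and then fell by 3 h in KO2 (-1.06, SE 0.28, adjusted p = 0.000393), where it rose in KO1 (2.19, SE 0.38, adjusted p = 1.84e-07) and WT (1.84, SE 0.32, adjusted p = 2.76e-07). Hist1h4c (H4c3) had 20 and 13 counts in KO2, 1 and 2 in KO1 and 1 and 0 in WT at 0 h. Hist1h4a (H4c1) had 14 and 6 counts in KO2 at 0 h and 1 and 0 in KO1, a difference of 3.99 (SE 1.14, adjusted p = 0.00676).

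Between clones and WT at 0 h, 0 of 40 members were higher and 7 lower in KO1, where 15.0% of all tested genes were higher and 12.3% lower. In KO2 8 were higher and 7 lower, where 15.1% were higher and 14.3% lower. Hist1h1c, Hist1h1d, Hist1h2bc, Hist1h3d and Hist2h2be were lower in each clone, and the 2 counts share the WT libraries. Of the 8 members higher in KO2, 5 encode H4 (Hist1h4c, Hist1h4d, Hist1h4h, Hist1h4n and Hist4h4), 2 encode H3 (Hist1h3f and Hist1h3h) and 1 encodes H2A (Hist1h2af). The summed H4 level at 0 h was 1.66-fold and the summed H2A level 1.45-fold that of WT in KO2, without overlap. Compared directly at 0 h, 8 members were higher and 2 lower in KO2 than in KO1, where 7.29% of all tested genes were higher and 9.55% lower. The 2 lower members were Hist1h1c (-0.62, SE 0.08, adjusted p = 1.17e-09) and Hist1h2bg (-0.69, SE 0.23, adjusted p = 0.0249). The median log2 difference of the members at 0 h was -0.38 for KO1 against WT and 0.15 for KO2 against WT, beside 0.01 and 0.00 for all tested genes.

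At the later times no tested member was called higher in a clone than in WT, and between 5 and 22 were called lower. At 3 h 5 were lower in KO1, where 16.7% of all tested genes were lower, and 14 in KO2, where 17.6% were. At 6 h 14 were lower in KO1 (17.4% of all tested genes) and 22 in KO2 (16.8%), and at 9 h 9 were lower in KO1 (15.1%) and 20 in KO2 (16.5%). Of all tested genes, 20.1%, 18.4% and 19.3% were higher in KO1 and 21.1%, 17.5% and 18.7% in KO2 at 3, 6 and 9 h. The members' median was -0.23 in KO1 and -0.87 in KO2 at 3 h, -0.64 and -0.87 at 6 h, and -0.43 and -0.58 at 9 h, while that of all tested genes lay between -0.02 and 0.02. At 6 h in KO2, 4 of 5 H1, 2 of 6 H2A, 6 of 9 H2B, 3 of 8 H3 and 7 of 12 H4 genes were lower.

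**Figure D5:**
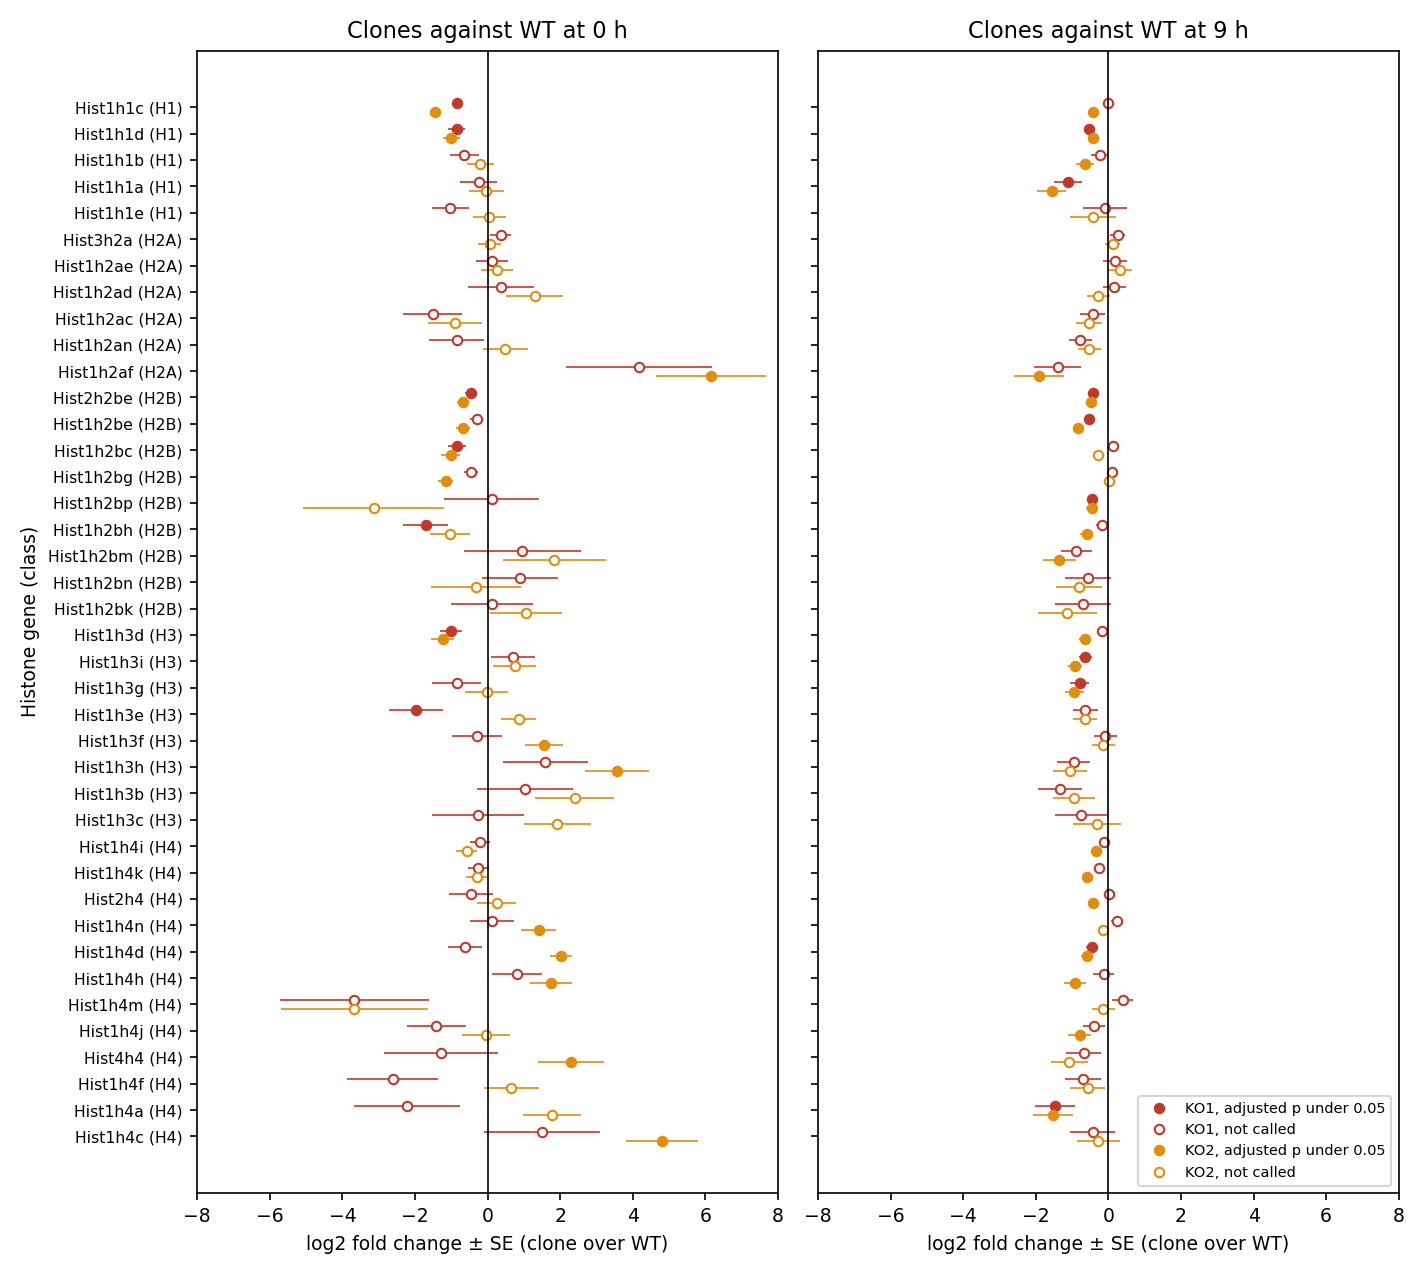
Log2 fold change (horizontal axis, clone over WT, bars SE) of each tested member (vertical axis) in KO1 and KO2 at 0 h (left) and 9 h (right); filled points passed the test and open points did not. At 9 h every filled point lies below 0, while at 0 h 8 filled points lie above 0 in KO2.

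Whether the change with time itself differed from WT was tested as a difference of differences. For KO1, 2 of 40 members changed more upward by 3 h and 0 more downward (13.1% and 12.7% of all tested genes), and 2 and 1 by 9 h (14.7% and 12.5%). For KO2, 2 changed more upward and 11 more downward by 3 h (13.3% and 11.4% of all tested genes), and 2 and 12 by 9 h (13.5% and 12.4%). The H3 and H4 genes made up 9 of the 11 at 3 h and 11 of the 12 at 9 h. These were measured against the KO2 libraries of 0 h, in which 7 H3 and H4 genes were higher than in WT. Hist1h1c was among those that changed more upward by 9 h, by 0.84 (SE 0.10, adjusted p = 4.08e-11) in KO1 and 1.03 (SE 0.11, adjusted p = 1.23e-13) in KO2.

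Promoters of the family were searched for short motifs in RefSeq sequences (GRCm38.p6) from 250 bases before to 50 bases after each start, on both strands. A promoter was found for 61 of the 67 members, among 27025 promoters in all. CCAAT stood in 85.2% of member promoters and 37.9% of all promoters, and TATAAA in 57.4% and 14.2%. CCAAT was in all 6 H1, 17 H2A, 16 H2B and 10 H3 promoters found and in 3 of 12 of H4. The octamer ATTTGCAT stood in 21.3% of member promoters and 1.75% of all, and only in H2A (7) and H2B (6) genes within the family. AAACACA, known as the AC box of linker histone genes, stood in 14.8% of member promoters and 7.14% of all, and in 5 of 6 H1 genes. Promoters of Hist1h1c, Hist1h2bg and Hist1h4i are shown because these genes had unlike time courses and carry unlike sets of the motifs. Capitals mark the motifs named above on the printed strand, or their reverse complement.
Hist1h1c, chr13:23738557-23738856, plus strand: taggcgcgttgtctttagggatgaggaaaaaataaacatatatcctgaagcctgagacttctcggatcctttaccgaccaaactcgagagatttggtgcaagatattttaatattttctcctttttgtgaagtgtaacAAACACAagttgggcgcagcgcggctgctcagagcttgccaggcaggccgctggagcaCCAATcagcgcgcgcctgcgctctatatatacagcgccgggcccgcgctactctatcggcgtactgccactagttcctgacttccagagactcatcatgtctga
Hist1h2bg, chr13:23571150-23571449, plus strand: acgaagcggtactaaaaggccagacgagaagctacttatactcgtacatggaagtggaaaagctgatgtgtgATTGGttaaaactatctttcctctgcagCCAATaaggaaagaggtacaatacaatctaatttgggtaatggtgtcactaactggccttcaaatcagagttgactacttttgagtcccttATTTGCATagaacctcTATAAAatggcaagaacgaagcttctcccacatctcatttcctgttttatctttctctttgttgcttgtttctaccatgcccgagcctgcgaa
Hist1h4i, chr13:22041313-22041612, minus strand: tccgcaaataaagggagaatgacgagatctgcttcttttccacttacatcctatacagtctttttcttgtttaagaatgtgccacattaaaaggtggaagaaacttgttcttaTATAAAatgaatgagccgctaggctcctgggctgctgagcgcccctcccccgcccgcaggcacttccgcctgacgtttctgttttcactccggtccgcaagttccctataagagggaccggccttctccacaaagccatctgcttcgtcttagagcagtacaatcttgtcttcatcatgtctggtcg
The Hist1h1c promoter holds CCAAT and AAACACA, that of Hist1h2bg CCAAT, ATTTGCAT and TATAAA, and that of Hist1h4i TATAAA alone. A match describes the letters and not a bound site.

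The machinery that makes and destroys histone messages was measured in the same libraries. Of 20 genes for transcription and 3′ end processing, 7 rose and 1 fell in KO1 at 0 h against WT, and likewise 7 and 1 in KO2, where 15.0% and 12.3% of all tested genes did so in KO1 and 15.1% and 14.3% in KO2. Slbp, which encodes the stem-loop binding protein, stood at 96.4 ± 2.28 CPM in KO1, 116 ± 0.0797 in KO2 and 82.0 ± 0.333 in WT at 0 h, and was higher by 0.23 (SE 0.05, adjusted p = 1.4e-05) in KO1 and 0.50 (SE 0.04, adjusted p = 2.4e-18) in KO2. By 9 h 7 of the 20 rose and 10 fell in KO1, 8 and 10 in KO2 and 8 and 10 in WT, where 42.2% and 38.3%, 42.0% and 38.8%, and 43.2% and 38.5% of all tested genes did so. Those shares of all genes apply to each list counted at 9 h here and below. Slbp rose by 0.84 in KO1, 0.72 in KO2 and 1.07 in WT, and Lsm11, a protein of the U7 particle, by 0.76, 0.73 and 1.38. Cpsf3, the endonuclease of the cut, fell by 1.75, 1.73 and 1.73, and Npat, the coactivator of histone gene transcription, by 0.40, 0.47 and 0.43 in KO1, KO2 and WT. At 0 h Npat differed from WT by 0.04 in KO1 and 0.07 in KO2 and did not pass the test.

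Of 15 genes of histone mRNA decay, 4 rose and 9 fell by 9 h in KO1, 4 and 9 in KO2, and 5 and 8 in WT, with a median log2 change of -0.21, -0.34 and -0.13 beside 0.12, 0.09 and 0.13 for all tested genes. Eri1, the exonuclease that trims the stem-loop, stood at 91.2 ± 5.08 CPM in KO1, 86.3 ± 2.59 in KO2 and 94.0 ± 2.22 in WT at 9 h, against 264 ± 4.43, 283 ± 1.21 and 314 ± 7.63 at 0 h. It fell by 1.54 (SE 0.04) in KO1, 1.71 (SE 0.04) in KO2 and 1.74 (SE 0.04) in WT. Xrn1, the cytoplasmic exonuclease, fell by 1.63, 2.05 and 1.97 in KO1, KO2 and WT, and Upf1, the helicase recruited by SLBP, by 0.21, 0.17 and 0.13. The list summed to 982 CPM in KO1, 975 in KO2 and 951 in WT at 9 h, against 1585, 1663 and 1539.8 CPM at 0 h. These folds and sums are on the TMM scale, and their part in the histone levels was not tested.

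Histone genes outside the family, listed as replication-independent, moved in both directions. Of 10 tested, 5 rose and 5 fell by 9 h in KO1, 5 and 5 in KO2, and 4 and 4 in WT, a split near that of all tested genes. H2afj, an H2A variant, rose by 1.16, 1.41 and 1.72 in KO1, KO2 and WT, and H3f3a, encoding H3.3, by 0.57, 0.56 and 0.75. H3f3b, which encodes the same H3.3 protein, fell by 0.99, 0.77 and 1.06, and H1f0, the linker histone of non-dividing cells, by 1.68, 1.44 and 1.73. Their summed level was 2619.5 CPM in KO1, 2736 in KO2 and 2922 in WT at 9 h, against 3346, 3212 and 3214 at 0 h. Set against WT, 3 of the 10 were higher and 1 lower in KO1 at 0 h, and 3 and 2 in KO2. At 3 h these counts were 0 and 8 in KO1 and 1 and 8 in KO2. At 6 h they were 2 and 7 in KO1 and 2 and 6 in KO2, and at 9 h 2 and 5 in KO1 and 2 and 4 in KO2. The shares of all tested genes are those given above for the members. Most were thus lower in both clones at 3 and 6 h. Of 15 histone chaperones, 3 rose and 11 fell in KO1, 4 and 10 in KO2, and 4 and 10 in WT by 9 h, with medians of -0.48, -0.43 and -0.25. Hjurp, the chaperone of the centromeric H3, rose by 1.19, 1.41 and 1.67 in KO1, KO2 and WT.

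Other S phase genes were mostly higher than in WT in the clones at 0 h, and mostly lower at 3 h. Of 22, 13 were higher and 1 lower in KO1 than in WT, and 17 higher and 0 lower in KO2, where 15.0% and 12.3% of all tested genes were so in KO1 and 15.1% and 14.3% in KO2. Their summed level at 0 h was 1979 CPM in KO1, 2132 in KO2 and 1742 in WT. The histone sum was lower in both clones, but in KO2 that rested on Hist1h1c, since without it the sum was 42.9 CPM in KO2 and 47.3 in WT, and 8 of 40 members were higher and 7 lower. Tyms, thymidylate synthase, was higher by 0.42 (SE 0.05, adjusted p = 3.7e-11) in KO1 and 0.51 (SE 0.05, adjusted p = 2.03e-15) in KO2, and Pcna, the sliding clamp of DNA polymerase, by 0.17 and 0.23. Against WT at 3 h, 0 of the 22 were higher and 18 lower in KO1, and 1 and 15 in KO2. At 6 h these counts were 1 and 13 in KO1 and 3 and 6 in KO2. At 9 h they were 0 and 14 in KO1 and 5 and 6 in KO2. The shares of all tested genes at those times are the ones given above for the members. Against 0 h, 8 of the 22 had risen and 12 had fallen by 9 h in KO1, 9 and 12 in KO2, and 11 and 10 in WT. The medians were -0.46, -0.36 and 0.16. Rrm2, a ribonucleotide reductase subunit, rose by 1.14, 1.36 and 1.48 in KO1, KO2 and WT, and Pola1, of DNA polymerase alpha, fell by 3.78, 4.19 and 3.41.

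RNAs that lack a poly(A) tail were looked up beside the histone genes, though too few had counts to measure how much of such RNA passed the selection. Of 15 listed, 10 were in the tables and 3 had enough counts for the test. The 10 summed to 2.44, 2.89, 2.31 and 2.56 CPM at 0, 3, 6 and 9 h in KO1, 3.43, 1.96, 3.21 and 3.15 CPM in KO2, and 1.75, 2.49, 2.81 and 3.40 CPM in WT. Between 9 h and 0 h, 1 of the 3 rose in KO1, 1 in KO2 and 2 in WT, and 0 fell. Scarna2, a guide RNA of the Cajal body, was higher in KO2 than in WT at 0 h (3.05, SE 0.67, adjusted p = 0.000109), in the libraries in which 5 H4 genes were higher as well. The part of such RNA in the histone counts was not tested.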

How the data were processed

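The authors deposited raw counts of read pairs per gene, 1 table per library; per the file headers they were made with featureCounts 1.6.3, paired, without strand, over exons of an Ensembl 105 annotation. The submitters' processing notes name GRCm39. Gene names came from GENCODE M21 (52081 identifiers named), which also gave the transcripts. All 24 libraries were fitted in edgeR 4.0.16 (R 4.3.3, limma 3.58.1) with TMM factors, filterByExpr at a minimum count of 10, and 1 coefficient for each of 12 groups. Quasi-likelihood tests were adjusted by Benjamini-Hochberg over 16167 genes and called under 0.05. CPM uses the TMM library sizes. A group with 0 counts was given a floor of 3 counts, which covers counting error only.

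The members and lists were chosen with earlier results of these data known. Members are named when they are among the 12 with the highest mean CPM, are called in both clones at 0 h, or have the largest called difference each way in a test. Others were named after their values were seen. On counts simulated for KO1 against WT at 0 h over 16167 genes, the test called 46 of 50 genes raised 2-fold and 41 of 50 lowered 2-fold. It called 49 of 50 raised 4-fold, 46 of 50 lowered 4-fold and 10 of 15967 unchanged genes. Only genes above a set mean count were changed, and all genes were given 1 fixed spread. These rates therefore do not apply to members with fewer counts, such as Hist1h2af with a mean of 6.29 per library. The 2 libraries of each group differed by more than sampling noise. Libraries with the same replicate number did not deviate together (correlation -0.0252 to 0.155 over 66 pairs of groups, 4 over 0.1), so that no pairing was used.

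The alternatives were DESeq2 1.42.0, its size factors, other filters on low counts, a replicate block, only the groups compared, spike-in totals as the scale for changes with time, and leaving out each library.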

Additional observations from a re-analysis of the deposited data

Results flagged for a closer look

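The results given here are those in which the change with time in a clone differed from that in WT by edgeR's test of the difference of differences, among the named members. Their values are log2 differences of the 2 changes, clone minus WT.

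For KO1, Hist1h2bc (0.91, adjusted p = 0.0176) and Hist1h2bg (0.81, adjusted p = 0.0238) changed more upward by 3 h than in WT. By 9 h, Hist1h1c (0.84, adjusted p = 4.08e-11) and Hist1h2bc (0.97, adjusted p = 0.00551) changed more upward. Hist1h2af changed more downward (-5.57, adjusted p = 0.0363), a fitted value that depends on the prior count because WT had 0 counts at 0 h.

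For KO2, Hist1h1c (0.28, adjusted p = 0.0236) and Hist1h2bg (1.31, adjusted p = 0.000355) changed more upward by 3 h. Changes more downward by 3 h were those of Hist1h4d (-2.90, adjusted p = 2.29e-08), Hist1h2ad (-3.57, adjusted p = 0.00932), Hist1h4n (-1.88, adjusted p = 0.0217), Hist1h2be (-0.75, adjusted p = 0.0345), Hist1h4c (-5.35, adjusted p = 0.0369) and Hist1h4a (-3.46, adjusted p = 0.0444).

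By 9 h in KO2, Hist1h1c (1.03, adjusted p = 1.23e-13) and Hist1h2bg (1.18, adjusted p = 0.000215) changed more upward. Downward were Hist1h4d (-2.62, adjusted p = 9.03e-10), Hist1h2af (-8.06, adjusted p = 4.16e-05), Hist1h4c (-5.08, adjusted p = 0.000631), Hist1h4a (-3.30, adjusted p = 0.00567), Hist1h4n (-1.55, adjusted p = 0.0171) and Hist1h3e (-1.50, adjusted p = 0.0489). The value of Hist1h2af again rests on 0 WT counts at 0 h. Those of Hist1h4c by 3 and 9 h and of Hist1h2ad by 3 h rest on few WT counts at 0 h, so that their sizes are uncertain.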

How the results depend on the processing

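Counts of members called moved by over 1.5 times in the settings named here. With DESeq2 the count was 4 in place of 9 (KO1 against WT, 9 h), 9 in place of 20 (KO2 against WT, 9 h), 4 in place of 10 (KO2 against KO1, 0 h), 1 in place of 2 (change to 3 h, KO1 against WT), and 6 in place of 13 and of 14 (changes to 3 h and to 9 h, KO2 against WT). Fitting only the groups compared gave 15 in place of 9 for KO1 against WT at 9 h, 5 in place of 10 for KO2 against KO1, 13 in place of 21 for 3 h against 0 h in KO2, and 5 in place of 13 for the change to 3 h in KO2. A mean of at least 10 counts gave 6 in place of 10 for KO2 against KO1 and 9 in place of 14 for the change to 9 h in KO2. On the spike-in scale the change to 9 h in KO1 had 18 in place of 3 (17 upward, where 65.0% of all tested genes were called upward) and the change to 3 h in KO2 had 7 in place of 13, and both Hist1h2bg (9 h in WT, -0.14) and Hist2h2be (3 h in KO2, -0.10) turned negative. WT spike-in totals of 120 to 257 counts limit that scale. The family sum, as log2, was -0.45 (KO1) and -0.14 (KO2) against WT at 0 h without Hist1h1c, in place of -0.66 and -0.75. For 9 h against 0 h it was 2.92, 2.37 and 2.73 without Hist1h1c in KO1, KO2 and WT, 2.26, 2.11 and 1.78 as CPM of the raw gene total, and 2.16, 0.78 and 0.83 per spike-in count, in place of 2.08, 1.91 and 1.66. As CPM of the raw gene total it was -0.18 in KO1 and -0.42 in KO2 against WT at 9 h, in place of -0.23 and -0.49. The cause of these differences was not tested. Leaving out 1 library gave 4 to 6 calls in KO1 against WT at 0 h (lowest without KO1 replicate 1), 3 to 6 at 3 h (KO1 replicate 2) and 3 to 6 at 9 h (KO1 replicate 1, and 5 without either WT library). For KO2 against WT it gave 8 to 12 at 3 h (WT replicate 1, and 9 without KO2 replicate 1) and 11 to 18 at 9 h (WT replicate 1). For KO2 against KO1 it gave 6 to 7 (6 without replicate 1 of either). For the change to 3 h it gave 0 to 2 in KO1 (0 without the 3 h WT replicate 2, 1 without the 0 h KO1 replicate 1 or either 3 h KO1 library) and 5 to 11 in KO2 (5 without the 0 h KO2 replicate 1, 6 without the 3 h WT replicate 2, 7 without the 3 h KO2 replicate 2 or the 0 h WT replicate 2, 8 without the 0 h WT replicate 1). With a replicate block, the samples sharing only a number, the counts of the 19 tests moved by at most 1, for example 7 for KO1 and 15 for KO2 against WT at 0 h and 29 in place of 28 for 9 h against 0 h in KO2. Of 2177 values of named members under an alternative, 1950 kept the call, 225 lost it and 2 reversed.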
